A study of Homo sapiens with 6 samples.

Results

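The zinc finger genes of the pericentromeric cluster on the short arm of human chromosome 19 were followed in 6 RNA sequencing libraries. The members were listed by gene symbol and place near the chromosome 19 centromere. They were chosen by someone who had the counts and the knockout to wild-type comparison of the same libraries in view. Differences between the clones are therefore given as a description of these libraries, with no p-value for a member and no test over the members. Of the 34 listed symbols, 33 had a row among the 26485 rows of the table. ZNF66 had none and is not analysed here.

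The cells were HuCCT1, an established line from a human cholangiocarcinoma, a cancer of the bile ducts. All libraries came from lines that had passed through CRISPR editing, the wild-type clone included, and were grown in the same serum-containing DMEM-F12 medium. The wild-type group was clone 1 (libraries a, b and c). The knockout group was clone 22 (libraries a, b and c), labelled as lacking AQP1, the gene of the water channel aquaporin-1. Each genotype is a single clone, so an effect of the edit and a difference between clones cannot be told apart. Nothing in the labels ties the letters to separate cultures, so the spread between libraries may be technical.

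The members belong to the KRAB zinc finger gene family, although the longest reading frame found for ZNF738 held no finger. In a typical protein of the family a row of C2H2 fingers binds DNA and the KRAB domain recruits the co-repressor TRIM28, which brings the histone methyltransferase SETDB1 and leads to chromatin marked by H3K9 methylation. The family grew by tandem duplication in primates, and many members bind transposable elements. ZNF91 represses SVA elements and ZNF93 represses LINE-1 elements, the best known cases in this cluster. The genes lie side by side between the gene-dense part of the arm and the centromere.

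The promoter letters are shown for members with different wild-type levels, so that their likeness can be seen. RefSeq start sites (GRCh38.p14) were found for 27 of the 34 members. The 8 windows below are the 150 bases before the start, written 5′ to 3′ along the gene. The start is the one RefSeq's promoter table gives: for ZNF101 and ZNF43 it lies inside the span of the gene, downstream of its outermost start, and for the other 6 it is the outermost start. ZNF101 lies at the edge of the cluster, ZNF714 and ZNF431 had at least 475 counts in every library, and ZNF85 and ZNF43 had 0 counts in wild type. ZNF486 and ZNF257 had at most 8 counts in a wild-type library, and ZNF91 had 15 to 28. Capitals mark the 8-base word and the 12-base word that the most members share.
ZNF101 (chr19:19668689-19668838, plus strand): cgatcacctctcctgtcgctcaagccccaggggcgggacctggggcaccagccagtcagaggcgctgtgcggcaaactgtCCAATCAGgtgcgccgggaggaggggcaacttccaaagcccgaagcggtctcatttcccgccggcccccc
ZNF486 (chr19:20167064-20167213, plus strand): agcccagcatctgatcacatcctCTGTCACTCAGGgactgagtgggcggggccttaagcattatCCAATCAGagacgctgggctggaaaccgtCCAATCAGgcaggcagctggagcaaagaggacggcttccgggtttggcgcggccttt
ZNF85 (chr19:20923101-20923250, plus strand): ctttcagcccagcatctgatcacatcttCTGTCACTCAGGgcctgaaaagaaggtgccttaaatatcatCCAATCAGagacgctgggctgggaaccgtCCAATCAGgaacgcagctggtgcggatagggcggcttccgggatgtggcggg
ZNF714 (chr19:21082053-21082202, plus strand): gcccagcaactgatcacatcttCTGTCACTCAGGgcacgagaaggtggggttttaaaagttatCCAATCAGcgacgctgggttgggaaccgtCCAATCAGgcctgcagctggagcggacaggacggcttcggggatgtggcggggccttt
ZNF431 (chr19:21141890-21142039, plus strand): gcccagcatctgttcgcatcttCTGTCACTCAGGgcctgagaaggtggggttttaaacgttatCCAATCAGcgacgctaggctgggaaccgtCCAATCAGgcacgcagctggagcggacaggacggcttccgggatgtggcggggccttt
ZNF43 (chr19:21836183-21836332, minus strand): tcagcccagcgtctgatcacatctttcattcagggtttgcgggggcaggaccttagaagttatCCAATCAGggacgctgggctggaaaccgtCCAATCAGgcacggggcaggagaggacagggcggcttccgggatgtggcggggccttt
ZNF257 (chr19:22052334-22052483, plus strand): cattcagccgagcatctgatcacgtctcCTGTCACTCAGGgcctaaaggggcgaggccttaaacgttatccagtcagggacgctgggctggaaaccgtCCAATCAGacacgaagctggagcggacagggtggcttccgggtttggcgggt
ZNF91 (chr19:23395472-23395621, minus strand): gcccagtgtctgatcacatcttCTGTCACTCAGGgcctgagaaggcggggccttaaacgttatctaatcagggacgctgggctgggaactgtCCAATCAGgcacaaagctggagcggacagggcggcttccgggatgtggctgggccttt

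The shared 8-base word was CCAATCAG, which contains the CCAAT box, and the 12-base word was CTGTCACTCAGG. Both were found by counting words in the members' own windows, so their frequency there was built in by the search. Over the 250 bases before the start and on both strands, CCAATCAG was in 27 of 27 member windows, in 13 of them at 2 or more places. It was in 3.98% of the 27305 windows of all genes, and at 2 or more places in 0.505%. The word CTGTCACTCAGG was in 18 of 27 member windows and in 35 windows of all genes (0.128%), which include those 18. Of the motifs searched by their textbook letters, CCAAT, which lies inside CCAATCAG, was in 27 of 27 (33% of all windows), the ETS core TTCCGG in 18 (14.8%), the GC box GGGCGG in 20 (42.3%) and TATAAA in 3 (11.1%). The member windows held 3 to 14 CpG dinucleotides with a median of 8, against a median of 11 over all genes. A match is a description of letters and does not show that a factor binds there.

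ZNF714 and ZNF431 both carried 2 copies of CCAATCAG and the 12-base word, as did ZNF85 and ZNF486, which had 0 and at most 8 counts per wild-type library. CCAATCAG was in all 6 windows of members called expressed in wild type below, all 12 windows of low members and all 8 of silent members. The 12-base word was in 2 of 6, 11 of 12 and 5 of 8 windows of these classes. Median CpG counts of the classes were 10.5, 7 and 8. These small classes were formed from the counts, so the differences were not tested.

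The libraries held 36925338 to 41724447 counts. Levels are given as CPM (counts scaled to a library total of 1000000), with the mean ± SD over 3 libraries. Where 3 counts are listed for a clone they follow the order a, b, c. AQP1 itself had 2 to 10 counts in every library of both clones and so does not check the labels. All 7 markers of bile duct epithelium were detected, and 6 were lower in knockout, with a summed level of 3305 to 3371 CPM in wild type and 1822 to 1853 CPM in knockout. KRT7 made up more than any other marker of that sum and fell least of the 6 (1751 ± 38.2 and 1613 ± 12.5 CPM), while 3 epithelial markers fell further: KRT19 from 755.7 ± 13.8 to 93.5 ± 4.59 CPM, EPCAM from 484.4 ± 6.24 to 40.7 ± 1.41 CPM and CDH1 from 202.3 ± 4.52 to 15.01 ± 1.28 CPM. Fibroblast markers summed to at most 17.999 CPM in wild type and at least 35.5 CPM in knockout, with 4 of 7 higher. Of the markers of immune cells, endothelium, pluripotent or germ cells and neurons, CD14 and MAP2 were higher in knockout and no other reported here passed. PTPRC, DAZL, STMN2 and NEFL had 0 counts throughout. The part of these shifts in the values of the zinc finger genes was not tested.

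Most of the cluster was at or near 0 in the wild-type clone and transcribed in the knockout clone. A member was called silent in a clone at 3 or fewer counts over its 3 libraries, expressed at a mean of at least 1 CPM, and low in between. In wild type 12 of 33 members were silent, 14 low and 7 expressed. In knockout 0 were silent, 7 low and 26 expressed. All 14 low members became expressed, and of the 12 silent members 5 became expressed and 7 low. Thus 26 of 33 moved to a higher state, 0 moved to a lower state and 7 were expressed in both. Over the 19476 rows with any count, 10.9% moved to a higher state and 5.29% to a lower state. Nearest the limits in wild type were ZNF676 (2 counts, silent), ZNF90 (4 counts, low), ZNF93 (0.729 CPM, low) and ZNF738 (1.47 CPM, expressed). In knockout they were ZNF492 (0.484 CPM, low) and ZNF728 (1.09 CPM, expressed). Without knockout library b, ZNF676 and ZNF99 were silent in knockout, which makes 2 silent members in place of 0 and 24 moves to a higher state.

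**Figure D1:**
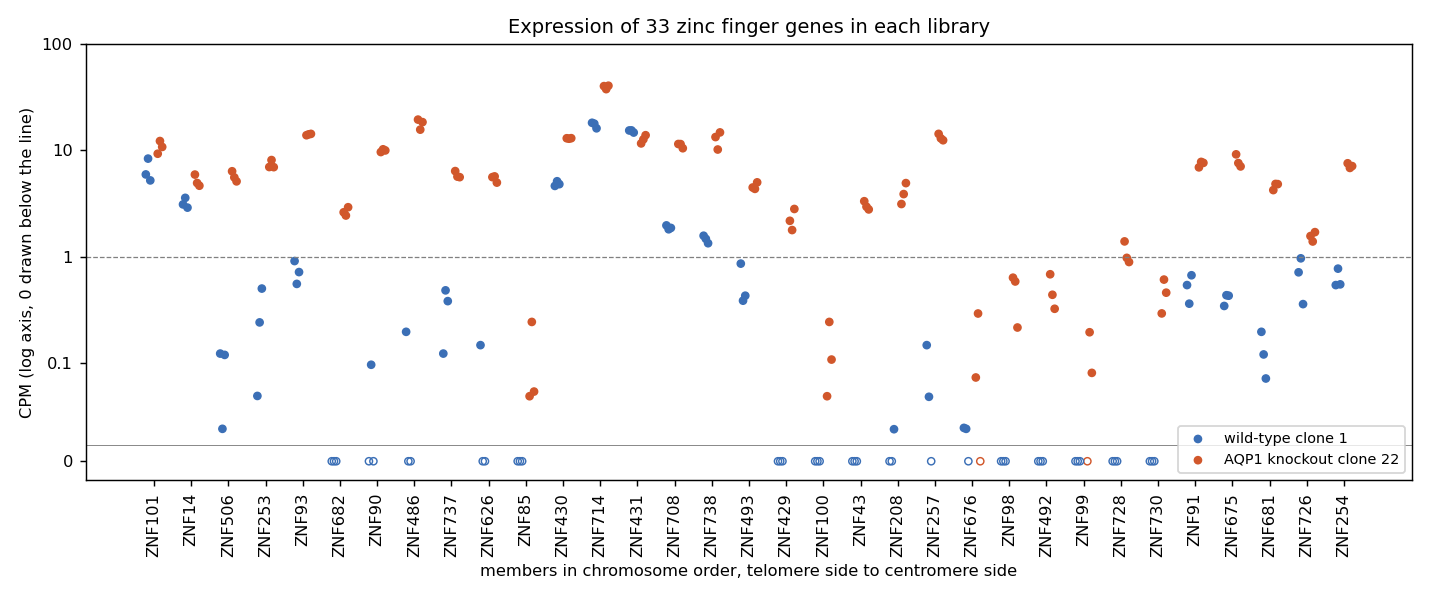
CPM of the 33 members in each of 6 libraries on a log axis, in chromosome order from the telomere side to the centromere side; open circles below the line are 0 counts and the dashed line is 1 CPM. Blue points (wild type) lie below 1 CPM for 26 members, while orange points (knockout) lie above 1 CPM on average for 26 members.

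Summed over the members, libraries a, b and c held 55.8, 58.2 and 51.3 CPM in wild type and 236, 228 and 235 CPM in knockout. The groups lie far apart: the means were 55.1 ± 3.50 and 232.9 ± 4.53 CPM, a ratio of 4.23. In wild type, 57.2 to 60.2% of those counts came from ZNF714 and ZNF431 alone, against 22.0 to 23.2% in knockout. Without this pair, chosen for its level, the means were 22.5 ± 2.26 and 180.7 ± 3.42 CPM and the ratio was 8.03. A library held a count for 18 to 21 members in wild type and for 32 or 33 in knockout. Over the whole table, 16476 to 16517 rows had a count in a wild-type library and 17190 to 17254 in a knockout library.

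All 6 libraries were fitted together with edgeR's quasi-likelihood test over 14405 genes, and a gene passed at a Benjamini-Hochberg adjusted p under 0.05. Of the 33 members, 28 entered this fit: 27 passed as higher in knockout, 1 as lower, and 5 were too low to enter. Of all genes tested, 37.1% passed as higher and 37.2% as lower, and 13.7% as at least 2-fold higher. In 15 of the 28 members a wild-type library had under 10 counts. These entered through the knockout libraries, so a rise was built in. The other 13 members had at least 10 counts in every library of wild type, and 12 of them rose and 1 fell. The knockout libraries all lay above the wild-type libraries in 30 of 33 members and below in 1, against 34.4% and 27.5% of all rows with a count.

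At the telomere side the first 2 members rose by less than 2-fold. ZNF101 (chromosome 19, 19668153 to 19683506) had wild-type counts of 241, 346 and 218 against knockout counts of 380, 501 and 398. The knockout libraries were all higher, but only just: library b of wild type was near library a of knockout. Levels were 6.51 ± 1.65 and 10.8 ± 1.47 CPM, a log2 fold change of 0.67 (SE 0.16). ZNF14 (19710472 to 19733112) had wild-type counts of 126, 148 and 121 against knockout counts of 242, 202 and 172. Its knockout libraries were higher without overlap, at 3.20 ± 0.350 and 5.17 ± 0.667 CPM (log2 fold change 0.64, SE 0.16).

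The next 3 members were low in wild type and expressed in knockout. ZNF506 had wild-type counts of 5, 1 and 5 against knockout counts of 260, 228 and 189. ZNF253 had wild-type counts of 2, 10 and 21 against knockout counts of 285, 332 and 257. ZNF93, the LINE-1 repressor, had wild-type counts of 37, 23 and 30 against knockout counts of 567, 579 and 528. In all 3 genes every knockout library exceeded every wild-type library by several times. Means went from 0.0891 ± 0.056 to 5.69 ± 0.633 CPM for ZNF506, from 0.265 ± 0.228 to 7.35 ± 0.662 CPM for ZNF253 and from 0.729 ± 0.178 to 14.1 ± 0.209 CPM for ZNF93. Ratios of a gene, here and below, are of counts summed over a clone's libraries and scaled by its summed library totals. For these genes they were 64.1, 27.6 and 19.4, with exact 95% counting intervals of 35.6 to 129, 19.5 to 40.3 and 15.7 to 24.2. Such intervals describe counting error alone. They treat each read as a separate molecule and leave out the spread between libraries, so they are too narrow for it. For ZNF253 the spread between libraries is wider: without wild-type library c its log2 fold change was 5.56 in place of 4.72.

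The following stretch held wider gaps. ZNF682 had wild-type counts of 0, 0 and 0 against knockout counts of 107, 100 and 108. With 3 counts over the wild-type group as the floor, it was at least 109-fold higher in knockout (2.66 ± 0.243 CPM). ZNF90 had wild-type counts of 0, 4 and 0 against knockout counts of 394, 419 and 369. ZNF486 had wild-type counts of 8, 0 and 0 against knockout counts of 795, 641 and 681. Both genes were near 0 in wild type, where all counts came from a single library in each gene. In knockout they reached 9.96 ± 0.298 and 17.9 ± 1.97 CPM, with ratios of 308 (counting interval 120 to 1131) and 276 (140 to 639). Without the single library (b for ZNF90, a for ZNF486) wild type is at 0, and the fitted log2 fold changes, then set by the prior count, were 11.62 in place of 8.08 and 12.47 in place of 7.99. After ZNF714, ZNF486 was the highest member of the knockout clone in CPM.

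ZNF737 had wild-type counts of 5, 20 and 16 against knockout counts of 261, 232 and 207. ZNF626 had wild-type counts of 6, 0 and 0 against knockout counts of 229, 233 and 184. Neither gene showed overlap between the clones, and ZNF737 was the more readily detected of the pair in wild type. The means were 0.33 ± 0.186 and 5.89 ± 0.437 CPM for ZNF737 (ratio 17.8) and 0.0493 ± 0.085 and 5.43 ± 0.389 CPM for ZNF626 (ratio 112, 51.2 to 307). All wild-type counts of ZNF626 came from library a. Without that library the fitted log2 fold change was 10.75 in place of 6.66, a value that depends on the prior count because wild type is then at 0. ZNF85, next in order, had wild-type counts of 0, 0 and 0 against knockout counts of 2, 10 and 2. It was thus near 0 in both clones (0.116 ± 0.111 CPM in knockout), and the bound on its difference is only at least 4.86-fold.

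In the middle of the cluster a run of neighbours was expressed in both clones. ZNF430 (21020657 to 21060050) had wild-type counts of 188, 212 and 201 against knockout counts of 531, 527 and 481. ZNF714 (21082203 to 21125094), the most abundant member, had wild-type counts of 737, 737 and 673 against knockout counts of 1640, 1540 and 1497. ZNF431 (21142040 to 21196053) had wild-type counts of 624, 637 and 614 against knockout counts of 475, 519 and 513. These adjacent genes differed less between the clones than the nearest tested members on either side, ZNF626 and ZNF708. Farther off, ZNF101, ZNF14 and ZNF726 also differed less than ZNF430, at log2 fold changes of 0.67, 0.64 and 1.13. ZNF431 was the only member that fell. Levels were 4.86 ± 0.250 and 12.97 ± 0.077 CPM for ZNF430, and 17.4 ± 1.10 and 39.5 ± 1.57 CPM for ZNF714. ZNF431 went from 15.2 ± 0.399 to 12.7 ± 1.13 CPM, with every wild-type library above every knockout library. Their log2 fold changes were 1.36 (SE 0.098), 1.13 (SE 0.062) and -0.31 (SE 0.080). For ZNF431 the value lay between -0.35 and -0.24 over the alternative fits.

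The 3 genes that followed had detectable but lower wild-type levels. ZNF708 had wild-type counts of 80, 75 and 78 against knockout counts of 469, 469 and 387. ZNF738 had wild-type counts of 64, 61 and 56 against knockout counts of 545, 417 and 545. ZNF493 had wild-type counts of 35, 16 and 18 against knockout counts of 183, 178 and 185. All rose in knockout, with no overlap between the clones. Means were 1.89 ± 0.080 and 11.1 ± 0.575 CPM for ZNF708, 1.47 ± 0.119 and 12.8 ± 2.34 CPM for ZNF738, and 0.561 ± 0.263 and 4.61 ± 0.349 CPM for ZNF493. The log2 fold changes were 2.51 (SE 0.13), 3.07 (SE 0.16) and 2.98 (SE 0.27).

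From ZNF429 towards the centromere wild-type counts were at or near 0 again. ZNF429 had wild-type counts of 0, 0 and 0 against knockout counts of 89, 73 and 104. ZNF43 had wild-type counts of 0, 0 and 0 against knockout counts of 136, 121 and 103. Both had no count in wild type and at least 73 in each knockout library, at least 92.3-fold and at least 125-fold higher. Knockout means were 2.26 ± 0.521 and 3.03 ± 0.277 CPM. ZNF100, which lies between this pair, had wild-type counts of 0, 0 and 0 against knockout counts of 2, 10 and 4, and its knockout mean was 0.134 CPM.

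ZNF208 had wild-type counts of 0, 0 and 1 against knockout counts of 128, 159 and 182. ZNF257 had wild-type counts of 6, 2 and 0 against knockout counts of 584, 531 and 460. ZNF257 was among the more abundant members in knockout, at 13.2 ± 0.952 CPM against 0.0655 ± 0.075 CPM in wild type (ratio 205, 104 to 476). Without wild-type library a, its log2 fold change was 8.87 in place of 7.56. ZNF208, which encodes the longest row of fingers among the members (36 pattern matches), reached 3.98 ± 0.901 CPM in knockout. Its single wild-type count gave a ratio of 488 with a wide counting interval of 87.2 to 19333, and without wild-type library c, which holds that count, wild type is at 0.

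The members nearest the centromere-side middle of the cluster were silent in wild type and mostly low in knockout. ZNF676 had wild-type counts of 1, 1 and 0 against knockout counts of 3, 12 and 0. ZNF99 had wild-type counts of 0, 0 and 0 against knockout counts of 0, 8 and 3. Their clones overlapped, and most of their knockout counts came from library b. ZNF98 had wild-type counts of 0, 0 and 0 against knockout counts of 26, 24 and 8. ZNF492 had wild-type counts of 0, 0 and 0 against knockout counts of 28, 18 and 12. These last 2 genes were each at least 20.1-fold higher in knockout, but they are close copies. Of the 50-base words in ZNF98 transcripts 37.6% also occur in ZNF492, and 29.4% in the other direction, so reads may be split or shared between them and their separate values are uncertain.

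ZNF728 had wild-type counts of 0, 0 and 0 against knockout counts of 57, 40 and 33. ZNF730 had wild-type counts of 0, 0 and 0 against knockout counts of 12, 25 and 17. Both lacked any wild-type count and were present in every knockout library. They were at least 45.1-fold and at least 18.7-fold higher, with knockout means of 1.09 ± 0.269 and 0.455 ± 0.159 CPM.

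The block next to the centromere was detected in every wild-type library. ZNF91, the SVA repressor, had wild-type counts of 22, 15 and 28 against knockout counts of 283, 319 and 282. ZNF675 had wild-type counts of 14, 18 and 18 against knockout counts of 375, 311 and 261. ZNF681 had wild-type counts of 8, 5 and 3 against knockout counts of 173, 198 and 178. The gaps between the clones exceeded the spread within either clone several times over. Means rose from 0.526 ± 0.155 to 7.46 ± 0.461 CPM for ZNF91, from 0.404 ± 0.051 to 7.95 ± 1.10 CPM for ZNF675 and from 0.130 ± 0.063 to 4.63 ± 0.343 CPM for ZNF681. The log2 fold changes of ZNF91 and ZNF675 were 3.76 (SE 0.21) and 4.23 (SE 0.20), and the ratio for ZNF681 was 35.7 (21.8 to 63.0).

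The last 2 members in order differed from each other. ZNF726 had wild-type counts of 29, 40 and 15 against knockout counts of 64, 57 and 63. ZNF254 had wild-type counts of 22, 32 and 23 against knockout counts of 309, 280 and 263. ZNF726 rose least among the tested members that were below 1 CPM in wild type, from 0.681 ± 0.306 to 1.56 ± 0.157 CPM (log2 fold change 1.13, SE 0.34), while ZNF254 rose from 0.623 ± 0.131 to 7.18 ± 0.365 CPM (3.47, SE 0.19). Whether the 2 genes differ in their change was not tested.

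Across the 33 members, 30 had a ratio or lower bound of at least 2-fold, 26 of at least 4-fold and 20 of at least 10-fold. These counts include lower bounds and members too low to test, such as ZNF85, ZNF100 and ZNF676. The share of all rows on this measure was not computed, so these counts describe the members alone. Of the 28 tested members, 25 passed as at least 2-fold and 22 as at least 4-fold higher. Among all 14405 genes tested, 1976 and 941 did so. A rise was built in for 15 of the 28. Sequence shared with other genes was limited for most members. The share of a member's 50-base transcript words that also occur in transcripts of another gene (GENCODE v29) ran from 0% for ZNF14 to 41% for ZNF98, with a median of 4.09%, and passed 10% in 3 members, the third being ZNF90 at 11.4%. How reads with several matches were counted is not given in the sources used here. Matches to the C2H2 pattern in the longest reading frame numbered 8 to 36 over the members with any, with a median of 13 over all 34. ZNF738 had none, and its longest frame was short (411 bases). Median finger numbers were 12, 12.5 and 14 in members that were expressed, low and silent in wild type, with wide overlap.

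To compare levels between genes, CPM was divided by merged exon length (2.19 to 14.1 kb). On this scale of level per exon length, ZNF714 led both clones, with 2.16 CPM per kb in wild type and 4.91 in knockout. In wild type ZNF14 (1.08), ZNF431 (1.07) and ZNF101 (0.993) came next, then ZNF430 (0.710), and no other member reached 0.5. ZNF14, ZNF431 and ZNF101 are close and their order is not resolved within their spread. In knockout ZNF486 (4.19 CPM per kb) and ZNF738 (3.27) followed ZNF714, and then ZNF257 (2.63), ZNF708 (2.58) and ZNF93 (2.53), which lie within their spread of each other. ZNF486 moved from place 17 to place 2 in this order and ZNF257 from 18 to 4, while ZNF431 was at 0.901 CPM per kb in knockout.

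**Figure D2:**
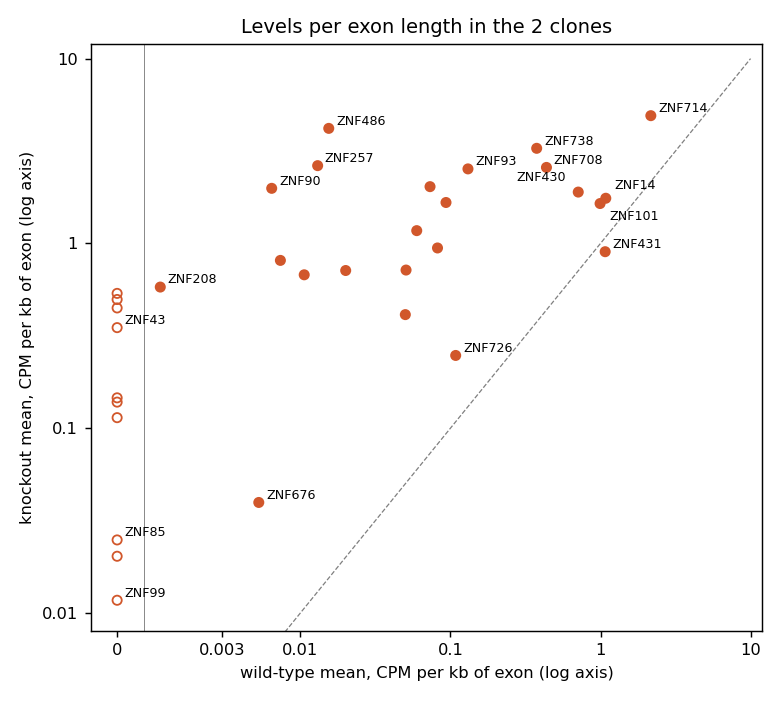
Mean level of each of the 33 members in wild type (x axis) and knockout (y axis), in CPM per kb of merged exon on log axes; open circles at the left are members with 0 wild-type counts and the dashed line marks equal levels. ZNF431 is the only point below the line, and ZNF486 and ZNF257 stand far above it.

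Other transcripts between the members were mostly near 0 in wild type, and those tested were higher in knockout with 1 exception. RefSeq places 13 further rows between ZNF101 and ZNF254, and some of them had 0 counts in every library of both clones. Of the 13 rows, 5 were tested and 4 rose, beside 37.1% of all genes tested. Of these 4, ZNF826P, LINC00664 and IPO5P1 had at most 2 counts in wild type and were tested because of their knockout counts, so a rise was built in for them. The pseudogene ZNF826P had 0 counts in wild type and 136, 124 and 106 in knockout, at least 127-fold higher. The noncoding RNA gene LINC00664, beside ZNF429, had 2, 0 and 0 counts and 120, 153 and 124 counts (ratio 207, 56.9 to 1713). IPO5P1 and LINC01224, outside the rule for named genes and given as the remaining genes that passed, rose from 0.008 ± 0.014 to 1.54 ± 0.281 CPM and from 0.363 ± 0.108 to 6.28 ± 1.249 CPM. Among the rows too low to be tested were 2 further zinc finger genes, named after their values were seen. ZNF729 had 0 counts in wild type and 8, 6 and 14 in knockout, and ZNF724 (listed as ZNF724P) had 0, 2 and 2 against 8, 15 and 13.

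The exception between the members was the row RPSAP58 (now RPSA2), a copy of a ribosomal protein gene that overlaps the start of ZNF681, a minus-strand gene, named after its values were seen. It had 10291, 9778 and 10647 counts in wild type and 12030, 11440 and 4832 in knockout, and did not pass (log2 fold change -0.13, SE 0.20, and -0.31 to 0.18 over the alternative fits, so its direction is not fixed). Knockout library c was far below the other 2 there. In ZNF681 the same library had 178 counts, between the 173 and 198 of the other libraries. Sequence shared with other genes was measured for the members alone, and RPSAP58 is a copy of another gene. Whether the counts of RPSAP58 came from this locus or from reads of that other gene was not tested.

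The nearest 20 tested genes on the telomere side had a median log2 fold change of 0.53, with 14 passing as higher and 1 as lower. The 20 nearest tested genes beyond ZNF254, which lie across the centromere on the long arm, had a median of 0.49, with 15 higher and 0 lower. Of all genes tested, 37.1% passed as higher and 37.2% as lower. Their median was 0.01, so both flanks were raised relative to it. At least 4-fold higher were 1 of 20 genes on the telomere side and 2 of 20 on the other, beside 941 of all 14405 genes tested. The members are not set against the flanks here, since 15 of the 28 tested members entered through high knockout counts. CILP2, a cartilage protein gene, rose from 0.0486 ± 0.042 to 0.819 ± 0.043 CPM. CEBPA, the gene of a transcription factor of liver and myeloid cells, rose from 0.0967 ± 0.047 to 1.04 ± 0.309 CPM, and the neighbouring noncoding gene CEBPA-AS1 also rose. CILP2, CEBPA and CEBPA-AS1 had at most 8 counts in any wild-type library. They were tested because of their knockout counts, so a rise was built in for them. On the telomere side SLC25A42 was the other leading rise (2.19 ± 0.194 to 5.72 ± 0.454 CPM) and LPAR2, a lysophosphatidic acid receptor gene, the only fall (12.1 ± 0.435 to 10.0 ± 0.351 CPM). ZNF101 and ZNF14, with 0.67 and 0.64, lay within the range of the neighbouring flank.

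**Figure D3:**
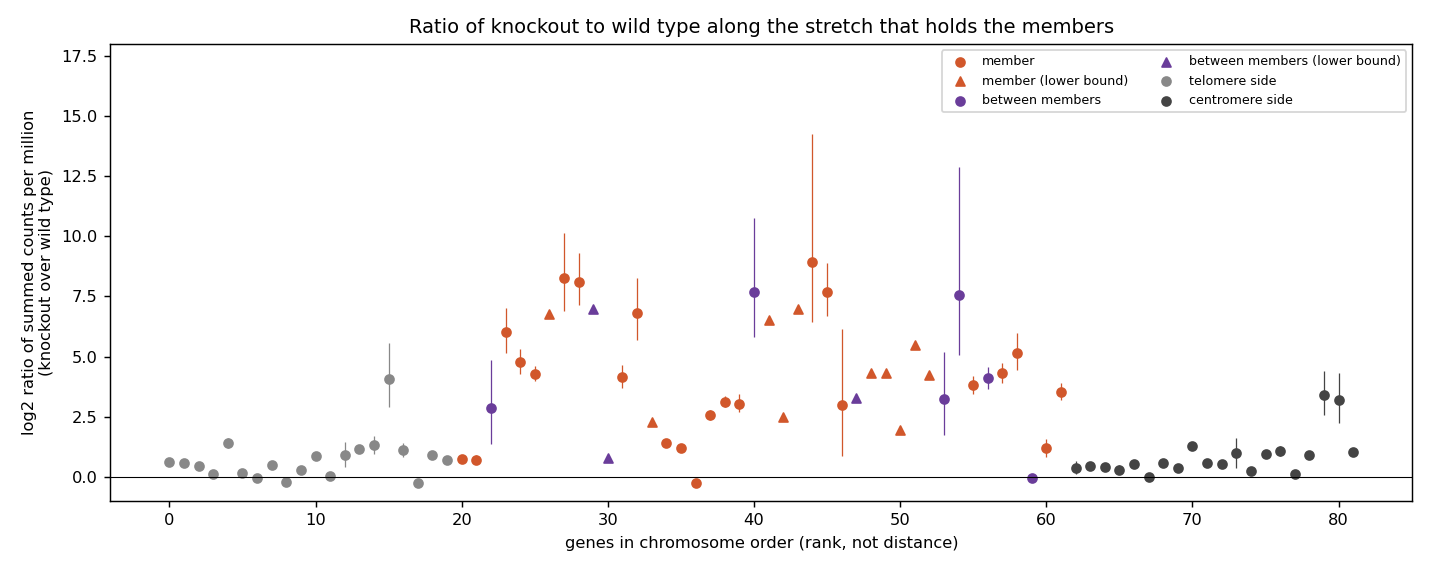
Log2 ratio of summed counts scaled by summed library totals, knockout over wild type, in chromosome order. Members are orange and other rows between them purple. The 20 tested genes on each side are light grey (telomere side) and dark grey (centromere side). Lines are 95% counting intervals and triangles are lower bounds for genes with 0 wild-type counts. Among the flanking genes CILP2, CEBPA and CEBPA-AS1 lie highest, and the ratios dip around ZNF430, ZNF714 and ZNF431 in the middle of the members. The flank medians of 0.53 and 0.49 in the text are of fitted log2 fold changes, which use another scaling.

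The machinery through which KRAB zinc fingers repress was measured with a list of 32 genes of co-repressors, histone and DNA methylation and their removal, all tested. Of these, 10 rose, 13 fell and 9 did not pass, where 37.1% of all genes rose and 37.2% fell, so the counts of the list are near the background. It had a median log2 fold change of -0.02 against 0.01 over all genes. TRIM28, the KRAB co-repressor, had the largest fall, from 375.6 ± 4.54 to 197.3 ± 2.22 CPM (log2 fold change -0.98, SE 0.024, edgeR quasi-likelihood adjusted p = 2.39e-13), lower in each of 3 knockout libraries. That p-value rests on the spread between libraries of a single clone per group, which may be technical. It does not measure an effect of the genotype. MORC2, which acts with the HUSH silencing complex, followed at 67.3 ± 2.08 and 41.5 ± 0.972 CPM. SETDB1, the H3K9 methyltransferase, fell from 42.8 ± 0.917 to 35.7 ± 2.85 CPM (-0.32, SE 0.062). The largest rises were CHD3, a chromatin remodeller of the NuRD complex (72.1 ± 1.90 to 166 ± 1.68 CPM, log2 fold change 1.15), and TET1, which oxidises methylated cytosine (1.90 ± 0.430 to 4.06 ± 0.219 CPM, 1.04). ZNF274, a zinc finger protein that binds the 3′ ends of other zinc finger genes, rose from 11.6 ± 1.32 to 15.3 ± 1.01 CPM (0.34, SE 0.093). The part of these genes in the state of the cluster was not tested.

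Other zinc finger clusters of chromosome 19 gave different counts. In the 19q13.12 list, 17 of 34 genes were silent in wild type and 2 in knockout, and 26 of 29 tested genes rose, with a median of 2.78. In the 19q13.41 list, 11 of 37 were silent in wild type and 3 in knockout, and 22 of 31 rose, with a median of 0.96. In the 19q13.43 list near the telomere of the long arm, 15 of 53 were silent in wild type and 10 in knockout. There 6 of 40 tested genes rose and 12 fell, with a median of -0.19. Of all genes tested, 37.1% rose. In each list, tested genes that rose and had under 10 counts in a wild-type library entered through their knockout counts. A rise was built in for them, as for many members, and it enters both the numbers that rose and the medians. Moves to a higher state numbered 20 of 34, 12 of 37 and 5 of 53. They numbered 26 of 33 for the pericentromeric members and were 10.9% over all rows with a count. The lists of genes were chosen with earlier results known, and the differences between clusters were not tested.

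**Figure D4:**
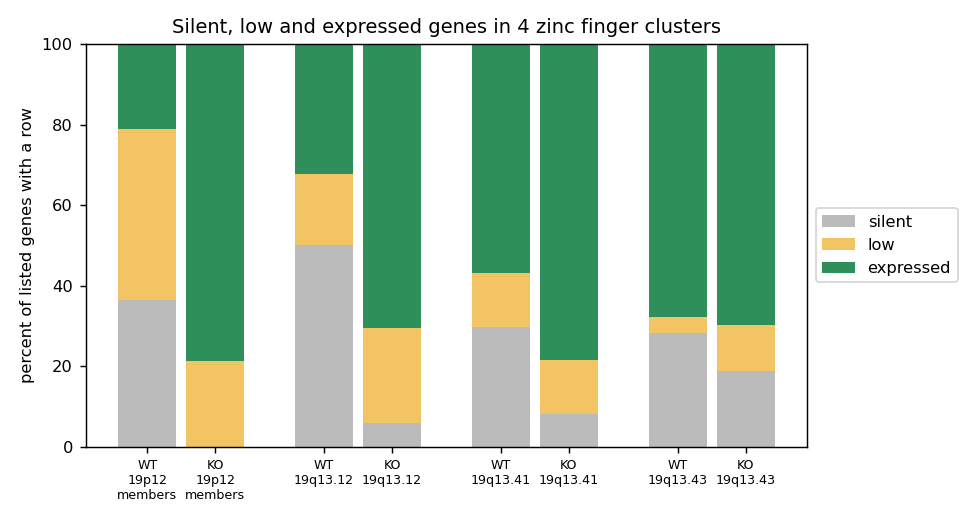
Percent of the genes with a row that were silent, low or expressed in wild type (WT) and knockout (KO) in 4 zinc finger clusters of chromosome 19 (33, 34, 37 and 53 genes). In the pericentromeric members the expressed share goes from 21.2% to 78.8%, and the bars of the 19q13.43 list change least.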

How the data were processed

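Per the labels' protocols, poly(A) RNA went into 6 strand-marking Illumina TruSeq libraries. The authors deposited raw read counts per gene symbol. Trimmomatic 0.33, FastQC, HISAT2, edgeR and build hg38 are named, per the submitters' processing notes; which counting program, strand setting and annotation were used is not given in the sources used here.

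From these counts, CPM used library totals of 36925338 to 41724447, where 3 counts equal 0.0719 to 0.0812 CPM. The main test, in R 4.3.3, was the quasi-likelihood test of edgeR 4.0.16 after filterByExpr and TMM scaling, knockout minus wild type with no covariate and Benjamini-Hochberg adjustment over 14405 genes. SEs were derived from the F statistic and the log2 fold change. Libraries of the same clone differed by more than sampling noise (chi-square over its degrees of freedom, 4.18 to 7.61). Of the rows, 23752 matched a current and 1540 an older RefSeq symbol, which gave positions. Fold bounds use 3 counts over a group. TASOR was read from its older symbol.

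The members and all lists were chosen with earlier results of these data known. Values in full were to be given for members whose state differed, the 6 most abundant, and the 4 largest rises and falls that passed; in other lists, for the 2 largest rises and falls plus TRIM28, SETDB1 and ZNF274. Fits were tested on simulated counts. Alternatives were other normalizations and filters, DESeq2 1.42.0, limma-voom (limma 3.58.1), a replicate block, leaving out each library, an adjusted p of 0.01 and other limits for the states.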

Additional observations from a re-analysis of the deposited data

How the results depend on the processing

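The number of members passing as higher in knockout was 27, and 24 to 31 over all alternative fits, with 1 passing as lower in each. None of the 28 members tested changed direction or lost its call in any fit that gave an adjusted p, but for ZNF253, ZNF90, ZNF486, ZNF626, ZNF208 and ZNF257 leaving out 1 wild-type library moved the fitted fold by over 1.5 times. With the letters as a replicate block, 27 members passed as higher and 1 as lower, the same numbers as without it. Deviations of same-letter libraries correlated at 0.058, -0.019 and 0.008 over 14405 genes, and not every library correlated best with its own letter. The value for letter a was the highest of all pairs. With 3 libraries per clone, such correlations cannot settle whether equal letters were paired. With a limit of 0.5 CPM for expressed, 12 members were expressed and 9 low in wild type in place of 7 and 14; the other limits left the counts of states within 1.5 times. Leaving out each library in turn gave 0 to 2 members silent in knockout, the 2 arising without knockout library b. The ratio of summed CPM, 4.23, was 4.47 per kb of coding length. It was 5.37 per kb of exon and 8.03 without ZNF714 and ZNF431, settings chosen after seeing the data. Rows between the members that passed as higher numbered 4, and 7 without a filter or in DESeq2, where more rows were tested. At this depth a gene at 0 counts in a clone may still be transcribed below the floor of 3 counts.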
